A study of Rattus norvegicus with 40 samples.

Results

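The regions described here are stretches of rat genes that were heavily methylated in blood T-cells and sparsely methylated in kidney T-cells. They are the rows of the comparison of blood with kidney in SS/MCW rats aged 10 weeks and fed LS chow that lie at a promoter (the authors' class TSS) or inside a gene (class Intragenic), stand at 75% or more in blood and stand at 30% or less in kidney. By that rule 768 regions of 22861 genic regions, and of 42856 regions in all, were members. They named 663 genes and comprised 124 promoter and 644 intragenic regions. The levels of that comparison chose the members, so they are given as a description and no test of them was made.

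The study measured DNA methylation by reduced representation bisulfite sequencing, which reads CpG-rich fragments after bisulfite has converted unmethylated cytosines. Circulating and kidney T-cells came from the Dahl salt-sensitive rat, an inbred model of hypertension that worsens on a high salt diet. They were of 2 types, Dahl SS/JrHsdMcwi, called SS/MCW, and Dahl SS/JrHsdMcwiCrl, called SS/CRL. Both types carry the Dahl SS background, so no group is a salt-resistant control. At 10 weeks of age each type was sampled on chow labelled LS and after 3 weeks on chow labelled HS, and SS/MCW rats on LS chow were also sampled at 7 weeks of age. Each group held 4 libraries, each from a pool of 3 rats, and each pool gave 1 blood and 1 kidney library, for 40 libraries in 10 groups. Pooling hides the spread between single rats. The tables used here give 1 level per group and region, so no value below has an SD, and read depth is unknown.

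DNA methylation in mammals sits mostly on the cytosine of a CpG. Promoters rich in CpGs are usually unmethylated in every tissue, whereas CpGs within genes and between them are usually methylated, and a loss of methylation there often marks an enhancer or a promoter in use in that cell type. Such marks differ strongly between cell lineages, which makes methylation a record of cell identity. In a sample of several cell types, the level of a region is the average over all of them.

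The promoter members included several of the best known genes of the proximal tubule, the nephron segment that reabsorbs most filtered solutes. The windows of 3 of them and of Epcam, an epithelial adhesion gene, are shown because these genes serve the tubule or epithelium and their regions were called lower in kidney in every condition. Each window runs from 250 bases before to 50 bases after the RefSeq start on build GRCr8, 5′ to 3′ on the gene's strand, with every CpG in capitals. The measured regions are on build rn5, and whether each lies inside its window was not checked.
Slc22a8 (chr1:214927034-214927333, plus strand): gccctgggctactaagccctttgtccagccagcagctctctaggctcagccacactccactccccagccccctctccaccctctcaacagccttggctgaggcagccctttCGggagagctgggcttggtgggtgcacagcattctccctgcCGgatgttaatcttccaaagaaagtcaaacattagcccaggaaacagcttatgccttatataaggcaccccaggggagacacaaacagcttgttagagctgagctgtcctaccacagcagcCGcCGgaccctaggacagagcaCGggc
Hnf4a (chr3:172605970-172606269, plus strand): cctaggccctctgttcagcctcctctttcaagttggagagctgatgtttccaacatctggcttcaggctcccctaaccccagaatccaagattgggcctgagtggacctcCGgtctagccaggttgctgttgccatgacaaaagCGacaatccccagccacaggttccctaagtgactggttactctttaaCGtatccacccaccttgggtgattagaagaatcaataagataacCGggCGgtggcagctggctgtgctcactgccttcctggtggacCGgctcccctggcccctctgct
Khk (chr6:31175432-31175731, minus strand): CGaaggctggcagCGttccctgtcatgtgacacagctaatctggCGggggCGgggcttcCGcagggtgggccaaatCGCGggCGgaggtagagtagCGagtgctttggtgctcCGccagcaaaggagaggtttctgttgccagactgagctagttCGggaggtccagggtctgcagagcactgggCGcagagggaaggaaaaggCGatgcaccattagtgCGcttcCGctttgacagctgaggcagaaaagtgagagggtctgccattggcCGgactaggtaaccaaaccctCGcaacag
Epcam (chr6:12649629-12649928, minus strand): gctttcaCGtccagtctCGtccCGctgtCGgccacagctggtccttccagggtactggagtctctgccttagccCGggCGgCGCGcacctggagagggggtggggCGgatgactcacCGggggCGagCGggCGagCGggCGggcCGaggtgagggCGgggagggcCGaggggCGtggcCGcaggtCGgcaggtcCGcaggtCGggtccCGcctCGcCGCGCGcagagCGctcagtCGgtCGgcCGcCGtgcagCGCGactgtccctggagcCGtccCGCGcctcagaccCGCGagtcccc
The Slc22a8 window held 5 CpGs and the Hnf4a window 6, against 17 for Khk and 40 for Epcam. The windows of these genes thus ranged from CpG-poor to CpG-rich, which does not show what the measured regions covered.

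Another promoter member, at chr1:60623856-60624047 of rn5 with 13 CpGs, was listed for the miRNA genes Mir99b, Mirlet7e, Mir3596c and Mir125a, and one at chr10:108790822-108791431 with 19 CpGs was listed for Mir3065. Their mature miRNAs are shown, from RefSeq on GRCr8, because these are the only miRNA genes among the members. The gene of miR-3596c lies on the strand opposite to that of let-7e. The seed, bases 2 to 8, is in capitals.
miR-99b-5p: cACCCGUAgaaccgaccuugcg
miR-99b-3p: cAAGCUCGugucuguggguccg
let-7e-5p: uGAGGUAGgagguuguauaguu
let-7e-3p: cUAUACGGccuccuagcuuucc
miR-3596c: aCUAUACAaccuccuaccuca
miR-125a-5p: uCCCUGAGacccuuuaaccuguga
miR-125a-3p: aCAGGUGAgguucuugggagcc
miR-3065-5p: uCAACAAAaucacugaugcu
miR-3065-3p: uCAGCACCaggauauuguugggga
No seed was shared among these 9 sequences. The region listed for Mir99b and its neighbours stood at 82.4% in blood and 25.6% in kidney of SS/MCW rats on LS chow at 10 weeks. In the other conditions its kidney level was 41.4% in SS/MCW on HS chow, 32.4% in SS/CRL on LS chow, 30.2% in SS/CRL on HS chow and 30.7% in SS/MCW at 7 weeks, against 81.8% to 83.1% in blood. The Mir3065 region stood at 75.4% in blood and 7.94% in kidney in the defining comparison, and between 9.07% and 22.8% in kidney elsewhere.

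Over all members the median level was 83.1% in blood and 16.7% in kidney, a median difference of -66.4 percentage points. Just inside the kidney limit stood regions of Erc2 at 29.977%, Dlgap5 at 29.93% and Slc26a9 at 29.926%, and just outside it Grik3 at 30.143%, Tm4sf1 at 30.189% and Muc19 at 30.209%. Near the blood limit, Kcnn4 stood inside at 75.076% and Fgf6 outside at 74.971%. The limits cut a continuous range, since 153 members stood above 25% in kidney and 121 further genic regions at 75% or more in blood stood between 30% and 35%. At the other end, 26 members combined 90% or more in blood with 10% or less in kidney.

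The members were longer and richer in CpGs than the genic regions they came from. Their median length was 131 bp, against 114 bp for all 4554 genic regions at 75% or more in blood, and 18.8% held 10 or more CpGs, against 10.4%. Their median spacing was 19.6 bp per CpG, close to the 19.2 bp of genic regions at 75% or more in blood and wider than the 12.4 bp of all genic regions. Of the promoter regions at 75% or more in blood, 124 of 522 (23.8%) were members, against 644 of 4032 intragenic regions (16.0%) and 689 of 7106 intergenic regions (9.70%) that met both levels but are not members. These shares are descriptions, with no test.

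Promoter windows of the genes with a promoter member held fewer CpGs at the median than those of all genes with a tested promoter region. RefSeq windows were found for 85 of the 125 genes with a promoter member, and these held a median of 14 CpGs (quartiles 6 and 23). The 4628 matched genes with a tested promoter region held a median of 22. So did the 444 matched genes with an intragenic member. The 2582 matched genes whose promoter regions all stood under 5% in both tissues held a median of 25 (quartiles 18 and 32), and the 186 matched genes with a promoter region at 75% or more in blood and 60% or more in kidney a median of 9 (quartiles 5 and 20).

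**Figure D1:**
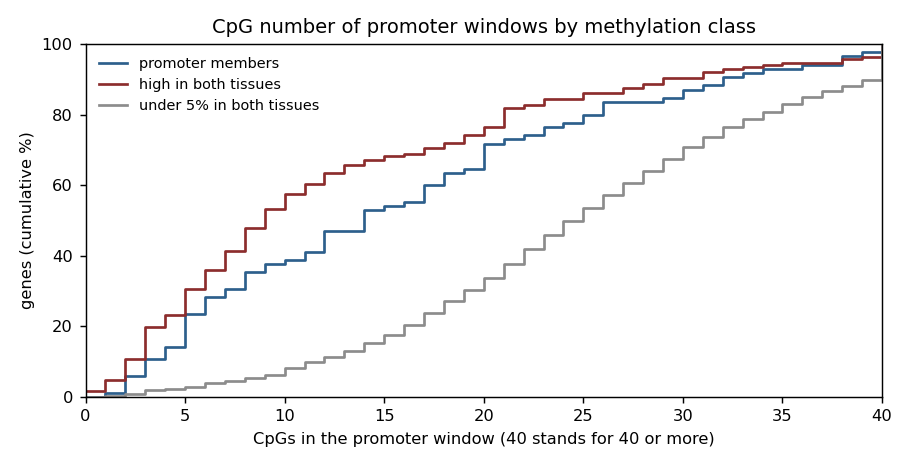
Cumulative share of genes (vertical axis, %) by the number of CpGs in the 300-base promoter window (horizontal axis), for genes with a promoter member, with a promoter region high in both tissues, or with all promoter regions under 5% in both tissues. The median of the genes with a promoter member, 14 CpGs, lies between those of the other groups, 9 and 25.

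The question the other comparisons of kidney with blood answer is how far the same regions were open in the kidney when chow, rat type or age changed. A region was called in a comparison where the authors' deposited table gave it an adjusted Mann-Whitney p under 0.05 and a difference of at least 10 percentage points. The members were lower in kidney in almost every case. In SS/MCW on HS chow 747 of the 748 members that overlapped a tested region were called lower, against 21.7% of all tested regions. The counts were 662 of 663 in SS/CRL on LS chow (20.5% of all regions), 712 of 712 in SS/CRL on HS chow (24.6%) and 716 of 717 in SS/MCW on LS chow at 7 weeks (19.1%). No member was called higher in any of the 4, where 2.98%, 1.99%, 2.61% and 1.99% of all regions were. None of these groups shares a pool with the comparison that chose the members. Genic regions at 75% or more in blood were called lower in 36.8% to 50.2% of cases over the same 4 comparisons. Intergenic regions with the members' levels were called lower as often as the members, in 680 of 680, 603 of 604, 644 of 645 and 645 of 646 cases. The authors' q-value, a separate column whose test the headers do not name, passed fewer members at the same limit of 0.05, namely 398, 439, 436 and 420, against 3.11%, 4.84%, 4.73% and 3.32% of all regions.

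Of the 623 members followed in all 4 other comparisons, 620 were called lower in all 4, and 117 met both defining levels in all 4. A member of Camta1, a calmodulin-binding transcription factor, was not called on HS chow in SS/MCW, at 59.9% in blood and 42.9% in kidney (adjusted p = 0.0912 in the authors' deposited table). Col23a1, a transmembrane collagen, was not called in SS/CRL on LS chow, at 71.4% and 40.4% (adjusted p = 0.061 in the authors' deposited table). Acvr2b, an activin receptor, was not called at 7 weeks, at 42.9% and 23.8% (adjusted p = 0.299 in the authors' deposited table). In each of these 3 regions the kidney level was still the lower of the pair.

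Blood stayed high while the kidney level moved with the condition. Over the 623 members followed throughout, the median blood level lay between 81.9% and 84.6% in the 5 conditions. The median kidney level was 16.7% in the defining group, 15.5% in SS/CRL on LS chow, 24.3% in SS/CRL on HS chow, 26.1% in SS/MCW at 7 weeks and 36.0% in SS/MCW on HS chow. The group of SS/MCW rats on HS chow was the highest of the 5 in 555 of the 623, and stood above SS/CRL on HS chow in 603. Selection of members by a low kidney level in the defining group pulls that group down, so its rank among the 5 is not a result. Across the 623 regions the kidney levels of any 2 of the 4 conditions other than the defining one were correlated. Pearson's r lay between 0.586 and 0.815, as a description over regions that share sequence and CpG number. The order of regions within the kidney was therefore partly kept while the whole set shifted.

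**Figure D2:**
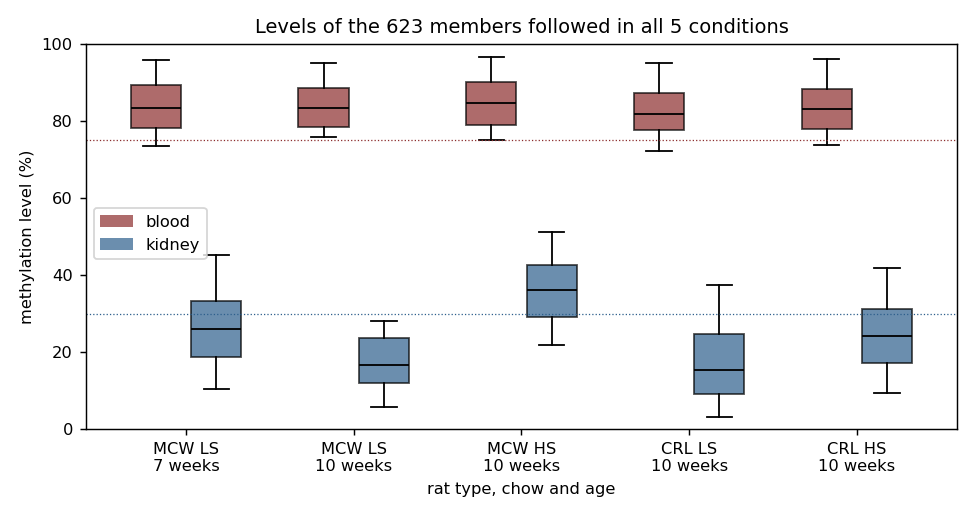
Methylation level (vertical axis, %) of the 623 members followed in all 5 conditions (horizontal axis), in blood and kidney, with boxes at the quartiles, lines at the median and whiskers at the 5th and 95th percentiles of regions. Dotted lines mark the levels of 75% and 30% that define a member in SS/MCW on LS chow at 10 weeks. That group was selected to be low in kidney, where its median is 16.7%. Among the other groups the kidney median is lowest in SS/CRL on LS chow, at 15.5%.

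Regions of T cell genes and of other lists were read in both tissues, because the level of a region is an average over the cells of a library. In the defining comparison 54 regions of 19 T cell genes stood at 10% or less in blood, with a median of 0.105% in blood and 0.980% in kidney. Of these 48 stood at 10% or less in kidney too, and 6 were called higher in kidney, where 2.31% of all tested regions were. On HS chow 10 of 47 such regions were called higher in SS/MCW and 10 of 34 in SS/CRL (2.98% and 2.61% of all regions). The counts were 4 of 61 in SS/CRL on LS chow and 7 of 79 in SS/MCW at 7 weeks (1.99% of all regions in each). Regions chosen at 10% or less in blood can hardly be called lower, and the shares of all regions cover every blood level. Whether T cell regions were called higher more often than other regions low in blood was not tested. T cell regions above 10% in blood are not in these counts and went both ways. In the defining comparison regions of Cd247 (25.2% in blood, 52.8% in kidney) and Thy1 (16.9%, 39.8%) were called higher. Regions of Nfatc2 (28.7%, 2.26%) and Gata3 (17.4%, 6.82%) were called lower. The 22 T cell regions at 75% or more in blood had medians of 84.5% in blood and 40.9% in kidney. Of the regions in the counts, some that were higher are mentioned here. They and the regions just named were chosen after their values were seen. In the defining comparison a promoter region of Lat, the adaptor of the T cell receptor, stood at 0.0403% in blood and 33.7% in kidney. A region of Cd2, a T cell adhesion receptor, stood there at 0% and 19.2%. The promoter region of Grap2, another T cell adaptor, stood at 0% in blood and 65.1% in kidney in SS/MCW on HS chow and at 0% and 69.9% in SS/CRL on HS chow. Most regions of T cell genes at 10% or less in blood were thus at 10% or less in the kidney libraries as well, and a minority stood higher there. In the defining comparison, regions of other lists at 10% or less in blood were also low in kidney. Their medians in blood and kidney were 2.29% and 1.28% for 30 proximal tubule regions, and 3.73% and 1.25% for 39 stroma regions. Low levels in both tissues were thus not particular to T cell genes. The part of other cell types in the members' differences was not tested.

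Many genes of the proximal tubule were among the members. Of 17 genes on a list of 46 proximal tubule genes that had a genic region at 75% or more in blood, 14 had a member, against 663 of 3036 genes in all (21.8%). In the comparisons that the rule did not use, the same 2 levels were met for 10 of 15 such genes in SS/CRL on LS chow (19.9% of all genes), 7 of 19 in SS/CRL on HS chow (11.8%), 7 of 17 in SS/MCW at 7 weeks (11.1%) and 3 of 21 in SS/MCW on HS chow (3.86%). The list was written with earlier results of these data known.

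Khk encodes ketohexokinase, the first enzyme of fructose breakdown. Its promoter region, chr6:36637222-36637459 with 12 CpGs, stood at 87.6% in blood and 10.2% in kidney. The other kidney levels were 27.1% in SS/MCW on HS chow, 8.94% in SS/CRL on LS chow, 12.5% in SS/CRL on HS chow and 23.9% in SS/MCW at 7 weeks, with blood between 85.0% and 88.1%. Among the groups that the rule did not use, SS/CRL on LS chow was the lowest and SS/MCW on HS chow the highest.

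Slc22a8 and Slc22a6 are neighbouring genes for the organic anion transporters OAT3 and OAT1, which take drugs and urate from the blood into tubule cells. The Slc22a8 promoter region, chr1:231737074-231737181 with 5 CpGs, stood at 92.5% in blood and 9.00% in kidney, and at 37.2%, 4.16%, 12.9% and 20.3% in kidney in SS/MCW on HS chow, SS/CRL on LS chow, SS/CRL on HS chow and SS/MCW at 7 weeks. The Slc22a6 promoter region, chr1:231763023-231763468 with 7 CpGs, stood at 86.2% in blood and 14.0% in kidney, and at 43.4%, 9.78%, 25.3% and 28.0% in kidney in the same order. Both genes followed the same order of groups, with SS/CRL on LS chow lowest and SS/MCW on HS chow highest.

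The master regulator gene Hnf4a had a promoter region at chr3:166128010-166128349 with 7 CpGs, at 77.4% in blood and 21.3% in kidney. Its other kidney levels were 42.5%, 20.5%, 34.2% and 42.5% in the order just used. Slc34a1, the sodium phosphate cotransporter, had an intragenic member at 85.6% in blood and 13.9% in kidney, with other kidney levels of 24.8%, 8.66%, 17.6% and 17.0% in the order used above. Slc3a1, part of the cystine transporter, had a promoter member at 99.1% in blood and 21.8% in kidney. Further members of the list lay in Aqp1 (a water channel), Ggt1, Lrp2 (megalin), Pck1 (the gluconeogenic enzyme), Slc13a3, Slc4a4 (the sodium bicarbonate cotransporter) and Slc7a7.

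The kidney level of the proximal tubule members ranged widely over the conditions. Their median was 20.9% in the defining group, 10.5% in SS/CRL on LS chow, 32.2% in SS/CRL on HS chow, 38.7% in SS/MCW at 7 weeks and 43.4% in SS/MCW on HS chow. For all followed members the same medians were 16.7%, 15.5%, 24.5%, 26.6% and 36.3%. The list was thus lower than the members at large in SS/CRL on LS chow and higher in the other groups, over 12 to 15 regions. The difference between the list and the other members was not tested.

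Enzymes of amino acid and sugar metabolism, a group written down after the members were seen, gave 21 genes with a member among 25 with a genic region at 75% or more in blood. They included Dao (D-amino acid oxidase), Cbs and Bhmt (homocysteine metabolism), Glul (glutamine synthetase), Pklr (a pyruvate kinase) and Pck1. The Dao promoter region, chr12:50156553-50156651 with 8 CpGs, stood at 93.3% in blood and 15.1% in kidney, and at 37.2%, 7.61%, 24.9% and 22.3% in kidney in the order used above. Fatty acid and sterol enzymes, also written down afterwards, gave 10 of 15 genes, among them Acacb (acetyl-CoA carboxylase) and Cpt1b (fatty acid import into mitochondria). Nuclear receptors gave 9 of 15, among them Hnf4a, Nr1h4 (the bile acid receptor FXR), Rxra, Esrrg, Thra and Thrb. Of all genes with a genic region at 75% or more in blood, 21.8% had a member. These groups were chosen on the members and support nothing about the choice.

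Other nephron and epithelial genes were among the members in smaller shares. The distal nephron list gave 3 of 8 genes, Atp6v0a4, Nedd4l and Stk39, and the list of epithelial identity 6 of 20, Epb41l5, Epcam, Map7, Pkd1, Prss8 and Tjp1. Prss8 encodes prostasin, a protease that activates the epithelial sodium channel. Its intragenic region, chr1:206396379-206396483 with 7 CpGs, stood at 81.7% in blood and 3.03% in kidney, and at 23.0%, 0.209%, 10.4% and 5.03% in kidney in the order used above. The region of Epb41l5, a FERM protein of epithelial polarity, at chr13:40783331-40783421 with 8 CpGs, stood at 95.7% in blood and 4.12% in kidney, and at 28.6%, 1.19%, 12.7% and 18.2% in kidney. Both regions were nearly free of methylation in kidney of SS/CRL rats on LS chow. The Epcam promoter region, chr6:21279125-21279239 with 7 CpGs, stood at 81.1% in blood and 14.1% in kidney, and between 17.5% and 29.0% in kidney elsewhere.

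The podocyte list gave 2 of 3 genes, Ptpro and Synpo (synaptopodin), and the endothelial list 6 of 14, Flt1, Flt4, Robo4, Sh2d3c, Tek and Tie1, most of them receptors of vessel growth factors. The stroma list gave 1 of 9, Acta2 (smooth muscle actin), the myeloid list 1 of 7, Itgam, and the natural killer list 0 of 1. The share of all genes was 21.8%. Sh2d3c, an adaptor of endothelial and blood cells, had 4 members. Its region at chr3:17117172-17117216 with 7 CpGs stood at 91.5% in blood and 8.55% in kidney, and at 18.6%, 4.26%, 5.20% and 4.68% in kidney in the order used above, so it stayed low in every kidney group.

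**Figure D3:**
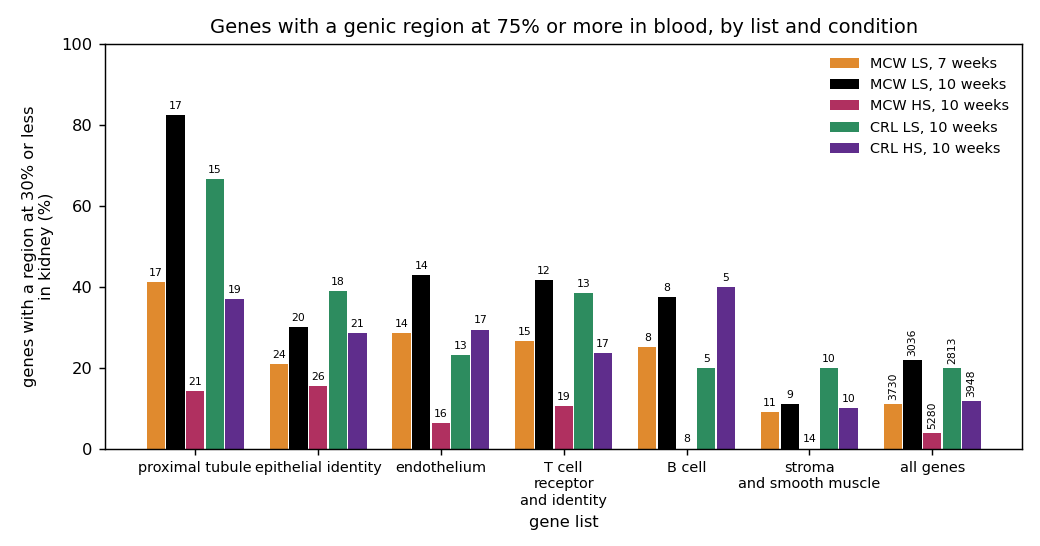
Share of genes (vertical axis, %) with a region at 30% or less in kidney among the genes of each list with a genic region at 75% or more in blood (number above each bar), in 5 conditions. The proximal tubule bar is 14 of 17 genes in SS/MCW on LS chow at 10 weeks, the comparison that chose the members, and 10 of 15 in SS/CRL on LS chow, against 21.8% and 19.9% of all genes.

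Genes of lymphocytes were members as well. The list of T cell receptor and identity genes gave 5 of 12, Fyn, Runx1, Runx3, Skap1 and Zap70, against 21.8% of all genes. The B cell list gave 3 of 8, Cd37, Ebf1 and Pou2f2, and the cytokine receptor list 4 of 9, Il1r2, Jak3, Pim3 and Tgfbr2. In SS/CRL the same 2 levels were met for 5 of 13 T cell genes on LS chow (19.9% of all genes) and 4 of 17 on HS chow (11.8%). In SS/MCW they were met for 4 of 15 at 7 weeks (11.1%) and 2 of 19 on HS chow (3.86%). The intragenic Runx1 region, chr11:36371712-36371968 with 17 CpGs, stood at 93.3% in blood and 6.17% in kidney, and at 23.6%, 3.81%, 9.25% and 11.2% in kidney in the order used above. RUNX1 and RUNX3 are transcription factors of T cell development, and RUNX2, of bone, also had a member. Jak3, the kinase of the common gamma chain receptors, had an intragenic region at chr16:19978710-19978779 with 5 CpGs, at 95.8% in blood and 6.82% in kidney, and at 25.6%, 1.86%, 11.7% and 11.8% in kidney elsewhere. Here it was the region inside a gene used by T cells that was methylated in blood and open in kidney, the reverse of the Lat promoter region.

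Zap70, the kinase that follows T cell receptor engagement, stood at 89.6% in blood and 29.2% in kidney at an intragenic region of 8 CpGs, chr9:43000012-43000239. Fyn, a kinase of the same pathway, had 3 members. The promoter region of Il4, the signature cytokine of type 2 helper cells, at chr10:38750634-38750774 with 5 CpGs, stood at 76.5% in blood and 15.5% in kidney, and at 26.4%, 18.6%, 19.5% and 17.5% in kidney in the order used above. Il4 was chosen for mention after its values were seen. The NF-kappa B list gave 3 of 10, Map3k14, Nfkb1 and Traf4, against 21.8% of all genes. Map3k14, the kinase NIK of the alternative NF-kappa B pathway, was among the lowest members in every kidney group, at 2.87% in the defining group and 15.1%, 1.86%, 7.63% and 8.78% in the others, with blood between 86.5% and 90.8%.

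The list of salt, renin-angiotensin and oxidant genes gave 3 of 10, Ace (angiotensin-converting enzyme), Atp1b1 (a sodium pump subunit) and Nedd4l (the ubiquitin ligase of the epithelial sodium channel). The intragenic Ace region, chr10:93926312-93926429 with 5 CpGs, stood at 82.3% in blood and 8.78% in kidney, and at 27.1%, 11.3%, 12.9% and 10.0% in kidney in the order used above. The list of DNA methylation enzymes gave 0 of 2. Solute carriers as a whole, by symbol, gave 21 of 76 genes (27.6%). The share of all genes was 21.8%, so the counts of solute carriers and of the salt list lay near it.

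**Figure D4:**
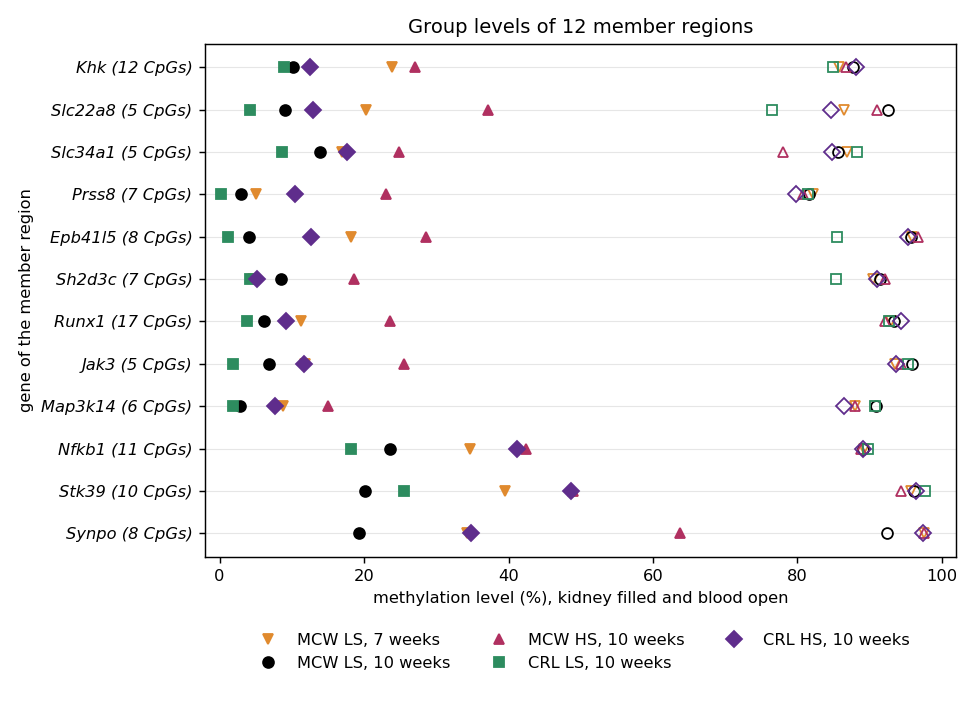
Group levels (horizontal axis, %) of 12 member regions (vertical axis, by gene with the CpG number), with filled symbols for kidney and open symbols for blood, in 5 conditions. Each symbol is the level of 1 group of 4 libraries, and blood levels lie between 76.5% and 97.7%. In all 12 regions SS/MCW on HS chow has the highest kidney level in these comparisons with blood. The low kidney level of SS/MCW on LS chow at 10 weeks chose the regions, so its rank is not a result.

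The largest differences in the defining comparison lay in genes of several kinds. The widest was in Cd37, a tetraspanin of B and T cells, at 98.7% in blood and 4.57% in kidney over 5 CpGs, and the next in Lama1, a laminin chain of basement membranes, at 96.4% and 2.60%. Nuak2 (98.3% and 6.18%), Galnt2 (96.4% and 5.62%), Rasa3 (96.4% and 7.01%), Macrod1 (94.1% and 5.50%) and Phospho1 (93.3% and 5.99%) followed, beside Epb41l5, Jak3 and Map3k14. Over the 4 other comparisons the members lowest in kidney on average included Cdk17, Gabbr1 (a GABA receptor subunit), Gfi1 (a repressor of blood cell development), Naa25, Prtfdc1, Slc29a3 and Sulf2. The Gfi1 region, with 16 CpGs, stood at 89.8% in blood and 3.89% in kidney in the defining group, and at 19.3%, 0.916%, 4.86% and 7.46% in kidney elsewhere.

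The promoter members with the most CpGs gave levels averaged over many sites. Agap2, an Arf GTPase-activating protein, had 71 CpGs in chr7:70542250-70543575, at 87.7% in blood and 10.9% in kidney, and at 24.4%, 8.33%, 16.0% and 14.8% in kidney in the order used above. Zfta, with 68 CpGs in chr1:229661446-229662121 and listed under an older symbol, stood at 90.8% and 19.3%, and Mn1, with 43 CpGs, at 88.0% and 20.8%. Irf2bpl, with 34 CpGs, stood at 82.6% and 7.47%, and Cd151, a tetraspanin of podocytes and epithelia with 32 CpGs, at 79.3% and 14.6%. In all 5 the kidney level was also lower than the blood level in every condition that the rule did not use. The smallest difference there was 47.1 percentage points, in Mn1 on HS chow in SS/MCW.

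A number of genes held several members. There were 98 genes with 2 or more, 22 with 3 or more and 7 with 4 or more. Camta1 held 9, spread over an intragenic stretch of chr5 from 171839846 to 172442579, with kidney levels from 18.3% to 29.0% in the defining group and from 34.6% to 44.3% in SS/MCW on HS chow. Ank3 (an ankyrin), Cdh23 (a cadherin), Kdf1, Myo18a, Prkce (a protein kinase C) and Sh2d3c held 4 each. Of these, the Kdf1 members and 2 of the Cdh23 members are regions listed at 2 places with the same values. In all, 16 members formed 8 such pairs, which cannot be counted as separate measurements.

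The promoters of genes with intragenic members were mostly unmethylated in both tissues, as were most promoter regions of the comparison. Of 549 genes with an intragenic member, 288 had a tested promoter region that was not a member, 821 regions in all. Of these 709 (86.4%) stood under 10% in both tissues, against 80.5% of all promoter regions in the table. Their medians were 1.10% in blood and 0.522% in kidney, and 77 were called lower in kidney and 6 higher. Of all regions in the comparison, 28.0% were called lower and 2.31% higher, but these are not matched in class or level. Regions under 10% in both tissues can hardly differ by the 10 percentage points that a call needs.

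The effect of HS chow on the kidney level of the members was read in SS/CRL rats, since neither of their groups was used by the rule. Methylation of the members was higher on HS chow. Of 546 members followed, 218 were called higher and 4 lower, against 3.29% and 0.428% of all tested regions. The median level was 13.1% on LS chow and 23.0% on HS chow, with a median difference of 9.10 percentage points, against 0.00 for all tested regions. All tested regions had median levels of 0.636% on LS and 0.677% on HS chow, so they are not matched to the members in level. Genic regions at 75% or more in blood and 60% or more in kidney moved by -2.09, and the 478 followed intergenic regions with the members' levels by 8.72. By the authors' q-value only 10 members were called higher and 0 lower, against 0.146% of all regions called higher and 0% lower.

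The largest called increase was in a region listed for Gjc1, a connexin, by 32.9 percentage points (adjusted p = 0.00157 in the authors' deposited table). The next, Atp6v0a1, a proton pump subunit, had nearly the same levels, so both may carry the same reads. Nfkb1, a subunit of NF-kappa B, rose by 31.5 points at an intragenic region of 11 CpGs, chr2:259408898-259409062 (adjusted p = 2.8e-08 in the authors' deposited table), and Acacb by 27.2 points (adjusted p = 0.0206 there). Stk39, the kinase SPAK that switches on the thiazide-sensitive cotransporter, rose by 27.1 points at chr3:61009899-61010058 (adjusted p = 1.6e-05 in the authors' deposited table). Its kidney level was 25.6% in the LS and 48.7% in the HS group in the comparisons with blood, whereas its blood level was 97.7% and 96.4%.

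Among proximal tubule members, 4 of 11 were called higher on HS chow and 0 lower, with a median of 9.49 points, close to that of all members. Pck1 rose by 23.4 points and Slc22a6 by 12.4, while Khk differed by 8.32, under the limit of 10. Over all followed members 39.9% were called higher. Nuclear receptors gave 6 of 8 higher, amino acid and sugar enzymes 8 of 15, epithelial genes 5 of 7 and T cell genes 3 of 6. Endothelial genes gave 1 of 6, with a median of 0.43 points, receptor tyrosine phosphatases 0 of 6, the AGAP family 0 of 5 and laminins 0 of 2 with 1 lower. These lists are small and their differences from the other members were not tested. At the limit of 10 points 4 members were called lower, Plec (plectin) by 30.9 points, Farp1 by 24.9, Lamc1 (a laminin chain) by 22.5 and Slc66a2 by 10.9. All 4 stood higher in the LS than in the HS group also in the comparisons with blood, where Farp1 for example stood at 39.3% and 12.8% in kidney.

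The same contrast in SS/MCW rats holds the defining group, whose low kidney levels chose the members, so it is a description. There 679 of 752 members were called higher on HS chow and 0 lower, against 13.0% and 0.235% of all tested regions, with a median difference of 18.6 points. The defining group also stands in the comparison of ages, where 284 of 639 members were called lower at 10 than at 7 weeks and 0 higher (3.38% and 0.206% of all regions), with a median of -9.50 points. Of the proximal tubule members 11 of 14 were called lower at 10 weeks, with a median of -17.0 points. On LS chow 23 of 464 members were called higher and 26 lower in SS/CRL than in SS/MCW (1.65% and 0.51% of all regions), with a median of -2.55 points.

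The rat types were compared on HS chow, where neither group was used by the rule. Kidney methylation of the members was lower in SS/CRL than in SS/MCW. Of 675 members followed, 358 were called lower and 1 higher, against 5.13% and 0.506% of all tested regions. The median level was 35.5% in SS/MCW and 23.0% in SS/CRL, with a median difference of -11.9 points, against -1.02 for all tested regions and -2.38 for genic regions high in both tissues. Intergenic regions with the members' levels moved alike, by a median of -11.7 points, and 328 of 609 (53.9%) were called lower, against 53.0% of the members. By the authors' q-value 27 were called lower and 0 higher, against 0.272% and 0.0255% of all regions. This comparison shares the HS kidney group of SS/CRL with the diet comparison above, and both share their libraries with the comparisons of kidney with blood.

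The largest called decrease was at the promoter of Acbd4, an acyl-CoA binding protein, by 40.3 points (adjusted p = 1.8e-06 in the authors' deposited table). Pkd1, the polycystin gene mutated in polycystic kidney disease, followed at an intragenic region of 9 CpGs, chr10:13773975-13774126, by 29.0 points (adjusted p = 7.3e-08 in the authors' deposited table). In the comparisons with blood its kidney level was 42.7% in SS/MCW and 11.8% in SS/CRL on HS chow, and 10.5% in SS/CRL on LS chow. Tacc1 fell by 28.9 points, Sntb2 by 28.8 and Tgm2, a transglutaminase, by 28.2. Slc22a8 fell by 23.4 points, Runx1 by 23.2 and Nedd4l by 22.6. Svop was the 1 member called higher in SS/CRL, by 14.9 points (adjusted p = 0.00016 in the authors' deposited table). Nfkb1 went the other way in this direct comparison, at 40.6% in SS/MCW and 43.5% in SS/CRL, and was not called (adjusted p = 0.643 in the authors' deposited table).

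By list, 8 of 14 proximal tubule members, 4 of 9 endothelial members and 6 of 8 T cell members were called lower in SS/CRL, and none of these lists had a member called higher. Their median differences were -11.7, -9.04 and -13.8 points, close to the -11.9 of all members. The median was negative in each of the 3 lists.

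**Figure D5:**
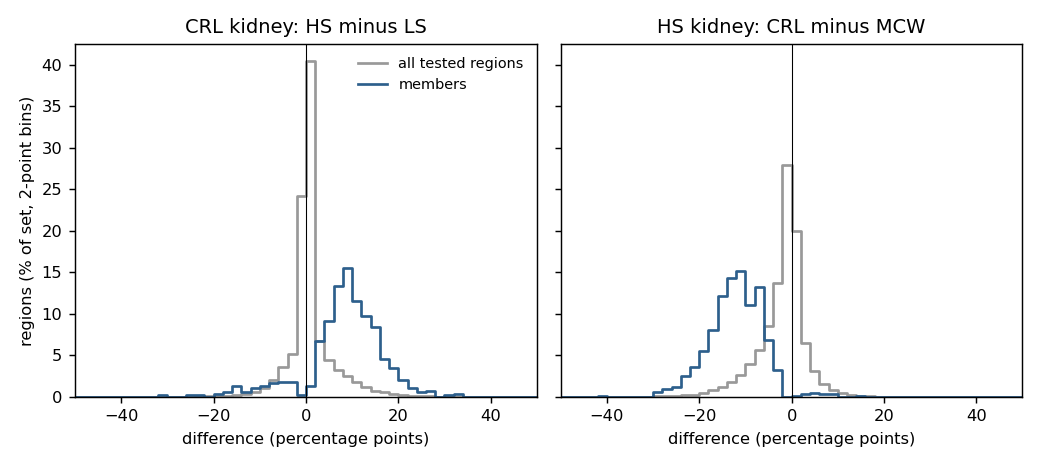
Share of regions (vertical axis, % of each set) by the difference in kidney methylation (horizontal axis, percentage points, bins of 2 points) for the members and for all tested regions, on HS against LS chow in SS/CRL rats and in SS/CRL against SS/MCW rats on HS chow. The members' medians are 9.10 and -11.9 points, while all tested regions, which are not matched to the members in level, centre near 0.

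Blood levels of the members hardly moved in the comparisons without the defining group. In SS/CRL rats 321 members were followed on HS against LS chow, with a median difference of -1.45 points, and 1 was called lower and 0 higher, against 0.265% and 0.137% of all tested regions. That region lies in Cacna1c, a calcium channel gene, and stood at 84.8% on LS and 65.6% on HS chow (adjusted p = 0.00061 in the authors' deposited table). Between rat types on HS chow 297 members were followed, with a median of -1.74 points, and 1 was called higher in SS/CRL and 0 lower (0.946% and 0.167% of all regions). It lies at the promoter of Krtcap3, at 70.5% in SS/MCW and 90.7% in SS/CRL (adjusted p = 1.1e-07 in the authors' deposited table). The blood comparisons with the defining group are a description. On HS against LS chow in SS/MCW rats 1 of 271 members was called higher and 0 lower (0.2% and 0.268% of all regions), between rat types on LS chow 1 of 282 higher and 0 lower (1.07% and 0.185%), and at 10 against 7 weeks 4 of 265 higher and 0 lower (0.375% and 0.289%). Fewer members overlapped a tested region in the blood comparisons than in the kidney comparisons.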

How the data were processed

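Reduced representation bisulfite sequencing of circulating and kidney T-cells was analysed from the 15 tables of the series, each a comparison of 2 groups of 4 libraries. Per the labels, libraries were sequenced with paired ends, and, per the submitters' processing notes, coordinates refer to rn5. Depth, the aligner, the building of regions and the combination of pools are not stated in the material used here. The level columns deposited by the authors hold a methylation fraction per region and group, shown here as percent, and the difference column deposited by the authors is a signed difference of fractions. The p-value and q-value columns were deposited by the authors: an adjusted Mann-Whitney p-value, used for calls under 0.05 with a difference of at least 10 percentage points, and a q-value, used as an alternative. What units that test ranked is not stated, so its p-values may not measure the spread between pools. No model could be fitted to 1 level per group.

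Each member was followed to the region of another table that shared most bases with it, at least 1 bp. The extent of that region can differ from the member's, which shifts levels between tables. Every region of a table held at least 5 CpGs, and no filter was added. Of 663 symbols, 622 were current in RefSeq, 33 matched 1 synonym and 8 were unmatched. The members and the gene lists were chosen with earlier results of these data known. Named genes were those with the largest differences, with 4 or more members, leading each list, lowest in kidney, not called, most changed in each independent table, or with the most promoter CpGs, and any other named gene was chosen after its values were seen. Matching and calling were tested on simulated data. Python 3 with pandas, NumPy, SciPy and matplotlib was used. Alternatives covered the defining levels, call limits, overlap, CpG number and class.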

Additional observations from a re-analysis of the deposited data

How the results depend on the processing

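Of 96 alternatives over 17 results, 60 kept a count within 1.5 times or a median within its rank interval, and 36 did not. A turn of direction was not scored. Narrower levels of 80% and 25% left 385 members and a minimum of 10 CpGs left 144. With the narrower levels 376, 338, 364 and 365 members were called lower in kidney in SS/MCW on HS chow, SS/CRL on LS chow, SS/CRL on HS chow and SS/MCW at 7 weeks. Promoter members alone gave 120, 111, 117 and 114, each of all followed, and the q-value 398, 439, 436 and 420. With at least 10 CpGs the median kidney levels were 33.4%, 14.2%, 20.9% and 22.9%. For HS against LS chow in SS/CRL kidney, the higher and lower counts were 346 and 8 with no minimum difference and 10 and 0 by the q-value, 27 were higher at 20 points, and 21 were lower by 10 points in the kidney columns of the comparisons with blood, an alternative chosen after seeing the data. For SS/CRL against SS/MCW on HS chow, 60 were lower at 20 points and 27 by the q-value, and 0 were higher at 20 points, by the q-value, with a reciprocal overlap or in the comparisons with blood. In blood, no minimum gave 3 higher and 12 lower for chow and 2 higher and 11 lower for rat type, and 0 were lower for chow at 20 points or by the q-value. No paired analysis was possible because each table holds 1 level per group and no level per pool, which also left no replicate to leave out.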

Other observations

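No member lay on chromosome X. The defining comparison held 333 genic regions on that chromosome, and 35 of them stood at 75% or more in blood, of which 0 stood at 30% or less in kidney. On the other chromosomes the share was between 13.7% and 22.2%. This difference was not tested.

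The nearest tested region on each side of a member, genic or intergenic, was read by its distance. At 200 to 1000 bp there were 88 such neighbours, 30 of them members themselves, with median levels of 78.4% in blood and 19.4% in kidney. Of the 48 at this distance that stood at 75% or more in blood, 62.5% stood at 30% or less in kidney. Within 200 bp the share was 15.4% of 13 such neighbours, at 1000 to 5000 bp 30.7% of 88 and at 5000 to 20000 bp 30.8% of 182, so it did not fall steadily with distance. Members among the neighbours numbered 2, 30, 26 and 54 from the nearest to the farthest distance, and they meet both levels by the rule. The shares thus largely count members that lie near each other. In the whole comparison 23.8% of promoter, 16.0% of intragenic and 9.70% of intergenic regions at 75% or more in blood met both levels. These are shares of regions that can share fragments and genes, with no test.

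Some small families were chosen for mention because each measured gene had a member. All 3 Runx genes with a genic region at 75% or more in blood had a member, as did 3 of 3 nuclear factor I genes (Nfia, Nfic and Nfix) and 3 of 3 AGAP genes. The nuclear factor I members had a median kidney level of 34.8% in SS/CRL rats on LS chow, over 4 followed regions, against 9.01% over 3 for the Runx members. In SS/MCW on HS chow the same 2 levels were met for 2 of 3 Runx genes, 0 of 4 nuclear factor I genes and 1 of 3 AGAP genes. Receptor tyrosine phosphatases gave 5 of 12 genes and laminins 3 of 7, against 21.8% of all genes. These families were chosen after the members were seen, so their counts describe the members only. A promoter region shared by Blcap and Nnat, an imprinted gene, stood at 90.9% in blood and 25.9% in kidney in SS/MCW on LS chow at 10 weeks, and at 41.6% in kidney in SS/CRL on LS chow.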
